A study of Homo sapiens with 6 samples.

Results

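HSPA5, PDIA4, SDF2L1 and SELENOS are 4 genes of protein folding and quality control in the endoplasmic reticulum (ER), described here among 13707 genes listed in full. They were picked by name because each had come out higher in C than in K, past an adjusted p of 0.05, in a previous test of these same libraries. Their difference between C and K is therefore given as a description, with no p. The libraries are messenger RNA of MDA-MB-231, an established line of human triple-negative breast cancer cells, sequenced as 3 libraries with the letter C in their titles and 3 with K. In the design text,  control cells stand beside cells given colistimethate, a prodrug of the antibiotic colistin, at 20 µM. No label says which letter is which arm, so values are given for C and for K, and neither is called treated. The design text speaks of repeated experiments without saying whether the 3 libraries of a letter were separate cultures, so the p-values below rest on library-to-library scatter that could be technical in part. These are bulk libraries of 1 cell line, in which a change per cell cannot be told apart from a change in the share of cells.

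Secreted and membrane proteins fold in the ER with the help of chaperones and of enzymes that form disulfide bonds, and those that fail are sent back to the cytosol for destruction (ER-associated degradation). When unfolded proteins build up, the sensors IRE1 (gene ERN1), PERK (EIF2AK3) and ATF6 start the unfolded protein response, which raises transcription of chaperone and degradation genes through ATF6, XBP1 and ATF4. HSPA5 encodes BiP, the HSP70 chaperone of the ER lumen, which also holds the sensors inactive. PDIA4 (ERp72) is a protein disulfide isomerase. SDF2L1 is a lumenal protein that works in a complex with BiP and the cochaperone DNAJB11. SELENOS is a membrane selenoprotein that links the degradation machinery to the ATPase VCP, which extracts proteins from the membrane.

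The promoters of the 4 genes are shown because the unfolded protein response acts on such genes through short elements next to the start site. Sequences come from RefSeq (GRCh38.p14), are written 5′ to 3′ on the strand of the gene, and stop before the first annotated transcript base. Capitals mark CCAAT and CCACG on either strand, the end boxes of the ER stress response element (ERSE), which NF-Y and ATF6 are known to recognise.
HSPA5 (chr9:125241344-125241593, minus strand): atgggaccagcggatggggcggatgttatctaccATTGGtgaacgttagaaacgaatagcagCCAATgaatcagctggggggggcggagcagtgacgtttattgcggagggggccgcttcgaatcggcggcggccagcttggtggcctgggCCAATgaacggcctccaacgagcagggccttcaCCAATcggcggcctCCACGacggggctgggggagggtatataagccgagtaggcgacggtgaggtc
PDIA4 (chr7:149028642-149028740, minus strand): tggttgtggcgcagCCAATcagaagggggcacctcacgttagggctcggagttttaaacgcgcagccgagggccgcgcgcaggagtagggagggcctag
SDF2L1 (chr22:21642052-21642260, plus strand): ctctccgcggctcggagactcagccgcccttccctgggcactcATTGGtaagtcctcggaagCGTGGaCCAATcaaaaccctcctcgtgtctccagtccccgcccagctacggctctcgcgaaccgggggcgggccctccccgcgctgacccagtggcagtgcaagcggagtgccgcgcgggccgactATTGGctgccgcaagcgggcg
SELENOS (chr15:101277501-101277735, minus strand): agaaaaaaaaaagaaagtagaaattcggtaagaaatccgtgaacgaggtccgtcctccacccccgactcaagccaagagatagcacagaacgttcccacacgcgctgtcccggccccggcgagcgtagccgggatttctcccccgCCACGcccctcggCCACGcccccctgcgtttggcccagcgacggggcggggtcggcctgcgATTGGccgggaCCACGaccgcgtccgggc

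Each promoter window, from 250 bases before the RefSeq start to 50 after it, was searched on both strands. The RefSeq start of PDIA4 lies inside its annotated gene, so 99 bases of its window came before the first annotated transcript base. These were 250 for HSPA5, 209 for SDF2L1 and 235 for SELENOS. An element of PDIA4 farther upstream would not be seen. ERSE, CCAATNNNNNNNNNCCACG, was found exactly in HSPA5 alone, as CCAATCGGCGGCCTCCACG from 66 to 48 bases before the start. Of 10086 promoter windows of tested genes, 0.0694% held an exact ERSE. ERSE-II, which is ATTGG and CCACG with 1 base of any kind between them, was found exactly in SDF2L1 alone, as ATTGGTCCACG on the opposite strand from 188 to 178 bases before the start, against 0.109% of the same windows. A copy of ERSE with 1 mismatch in SDF2L1 shared its CCAAT with that ERSE-II. The UPRE core TGACGTG, an XBP1 and ATF6 element, and the ATF4 element TTGCATCA were found exactly in none of the 4 windows, against 2.39% and 0.476% of tested windows. CCAAT occurred 5 times in HSPA5, 3 times in PDIA4, 4 times in SDF2L1 and 1 time in SELENOS, and CCACG 1, 1, 1 and 4 times. All 4 windows held both, as did 15.9% of tested windows. Exact ERSE contains both boxes, and ERSE-II contains both with CCAAT reversed, so these counts overlap. A match describes letters only and says nothing of binding in these cells.

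**Figure D1:**
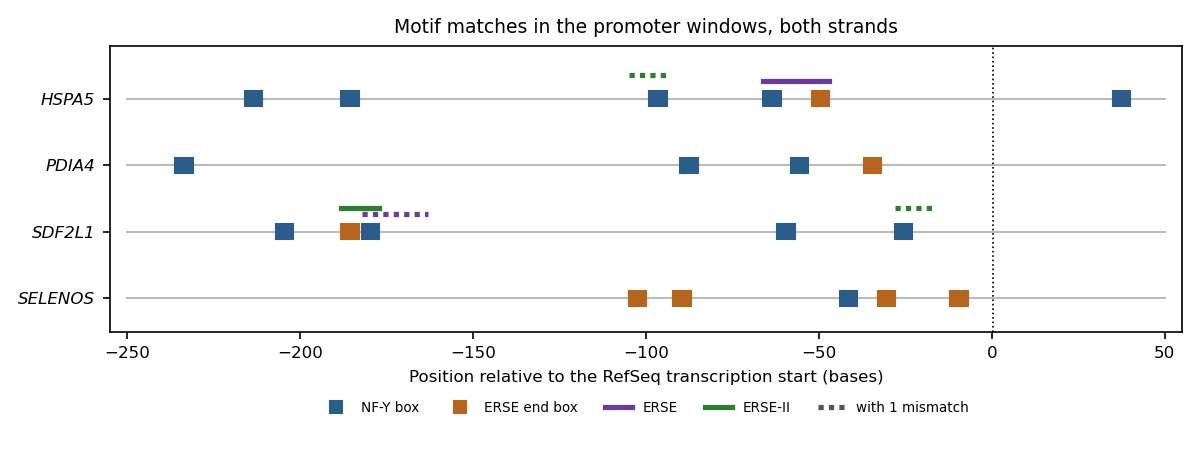
Positions of motif matches on either strand in the promoter windows of the 4 genes (x axis, bases from the RefSeq start, marked by the dotted line). Blue squares (NF-Y box) are CCAAT and brown squares (ERSE end box) are CCACG; bars above each line are ERSE and ERSE-II, dotted where 1 letter differs, and solid bars appear for ERSE in HSPA5 and ERSE-II in SDF2L1.

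Depth over the listed genes ran from 31438065 to 35946691 reads per library. Of 9057 genes tested, 199 (2.2%) were higher and 309 (3.41%) lower in C, 5.61% together, by the quasi-likelihood test of edgeR with Benjamini-Hochberg adjusted p under 0.05. These counts depended on the libraries and the method: without C1, C2, C3, K1 or K3, between 77 and 117 genes passed in all, with more lower than higher each time (18 higher and 59 lower without C1), and 533 without K2. There were 328 higher and 254 lower once GC content and transcript length were offset, and 526 higher and 513 lower with DESeq2. Listed transcripts of the mitochondrial genome took 3.21 ± 0.0806% of the reads over listed genes in C against 5.41 ± 0.429% in K (SD, n = 3). The mesenchymal genes AXL and CD44, which mark this line, were high, at 843 and 256 TPM (a level scaled for gene length and library total) in C against 717 and 230 TPM in K, while VIM, ESR1, PGR and ERBB2 were not analysed here. Of the 6 mesenchymal genes tested, AXL was higher (0.21, edgeR adjusted p = 0.0318) and CAV1 lower (-0.37, adjusted p = 0.0118) in C. CD44 did not pass (0.16, edgeR adjusted p = 0.205), and its C and K libraries overlapped. AXL and CD44 were the only 2 of the 6 with fold changes above 0, and the list median was -0.12. With each library left out in turn, AXL passed in 1 of 6 fits, without K2 (adjusted p 0.0497 to 0.107), and CAV1 in 3, without C2, C3 or K2 (0.0184 to 0.0615). In the luminal epithelial list, 3 of 6 tested genes (GATA3, ELF3 and SPDEF) were lower in C and 0 higher. Their calls held in 0 of those 6 fits for GATA3, in 2 for ELF3 (without C2 or K2) and in 2 for SPDEF (without C1 or K2), with adjusted p up to 0.147. The list's summed level, mostly KRT8, was 209 to 232 TPM in C and 221 to 245 TPM in K, and its defining gene CDH1 had 0 reads in every library. KRT5 and KRT14 (keratinocyte), HBB and CD3E (blood) also had 0 reads in every library. Other genes of those lists were abundant, namely SFN (keratinocyte) at 135 TPM in C and 131 in K, and SRGN (blood) at 413 TPM in C and 423 in K. Neither they nor COL1A1, the 1 fibroblast gene tested, passed. The part of the mitochondrial, mesenchymal and luminal differences in the results below was not tested. Log2 fold changes (C minus K) without the mitochondrial genes were 0.31 for HSPA5, 0.15 for PDIA4, 0.52 for SDF2L1 and 0.24 for SELENOS. That fit checks only how the mitochondrial share of reads affects the scaling.

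HSPA5 (ENSG00000044574, chromosome 9, 125234853 to 125241330 on GRCh38, minus strand) was the most abundant of the 4 by both TPM and CPM. Its TPM was 482, 474 and 483 in C1, C2 and C3, and 378, 384 and 382 in K1, K2 and K3. Every C library lay above every K library, and each letter kept within a narrow band. In counts scaled to library totals (CPM) it was at 1375 ± 20.9 in C against 1106 ± 12.02 in K (SD, n = 3), a log2 fold change of 0.31 (SE 0.025), or 24.4% more in C. At least 34483 reads stood behind each value. The chaperone ranked between 183rd and 190th by TPM among listed genes in C, and between 230th and 236th in K. Of its 75-base exonic windows, 4.15% recur in other gene models, chiefly AC105250.1 (3.31%), so a small part of its reads could be split between genes.

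PDIA4 (ENSG00000155660, chromosome 7, 149003062 to 149028641, minus strand) had the smallest fold change and the least scatter. Its TPM was 248, 252 and 248 in C1 to C3, and 222, 220 and 223 in K1 to K3. The letters did not overlap, and the gap between the lowest C and the highest K was 48.6 CPM on a level of 528 ± 2.83 in C and 476 ± 1.27 CPM in K. The log2 fold change was 0.15 (SE 0.023), or 11.1% more in C. The coefficient of variation among K libraries was 0.267%, below the 0.799% that counting error alone gives at this depth.

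SDF2L1 (ENSG00000128228, chromosome 22, 21642261 to 21644298, plus strand) had the largest fold change of the 4 and was the only member whose libraries differed much within a letter. Its TPM was 83.8, 83.8 and 84.0 in C1 to C3, and 53.1, 65.7 and 54.7 in K1 to K3. K2 stood between the C libraries and the other K libraries, and no K library reached a C library. The level was 53.1 ± 0.319 in C and 37.1 ± 4.57 CPM in K, a log2 fold change of 0.52 (SE 0.088), or 43.1% more in C. Without K2 the log2 fold change was 0.62, without K1 it was 0.46. The coefficient of variation was 0.601% in C, under the counting error of 2.39%, and 12.3% in K, above the counting error of 2.85%. The smallest count was 1072 reads. SDF2L1 has the shortest transcript of the 4 (865 bases) and, at 65.5% GC, the highest GC content.

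SELENOS (ENSG00000131871, chromosome 15, 101270817 to 101277450, minus strand) had the lowest TPM of the 4 in C, although SDF2L1, with a shorter transcript, had the lowest CPM. Its TPM was 64.9, 66.9 and 67.6 in C1 to C3, and 55.5, 56.2 and 54.8 in K1 to K3. The letters did not overlap, and the coefficients of variation, 2.05% in C and 1.97% in K, were close to the counting errors of 2.28% and 2.49%. The level was 58.0 ± 1.19 in C and 49.0 ± 0.964 CPM in K, a log2 fold change of 0.24 (SE 0.041), or 18.3% more in C. PDIA4, SDF2L1 and SELENOS share no 75-base window with another gene, and none of the 4 genes has an exon that overlaps an exon of another gene in GENCODE release 29.

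**Figure D2:**
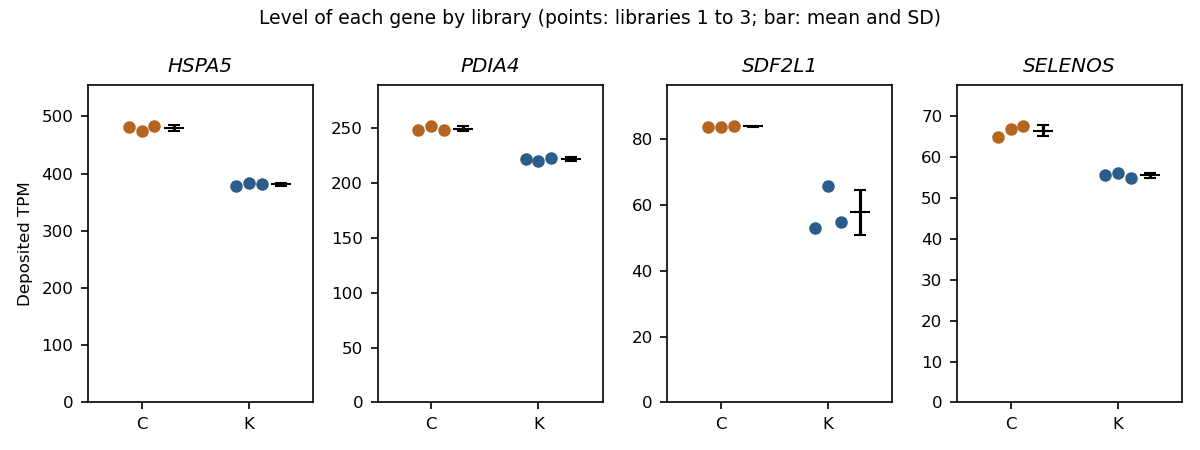
Deposited TPM (y axis, from 0, on a separate scale for each gene) of the 4 genes in the C and K libraries; points are libraries and the bar is the mean with its SD (n = 3). In each panel all C libraries sit above all K libraries, and K2 of SDF2L1, at 65.7 TPM, sits apart from 53.1 and 54.7 TPM.

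All 4 genes thus had 3 of 3 C libraries above every K library, the pattern they were picked for, which 16.1% of tested genes also showed (17.7% had every C library below every K library). Per length, HSPA5 led PDIA4 and both led the other genes in every library. In C, SDF2L1 exceeded SELENOS in each library, at 1.26 ± 0.0250 times its TPM. In K their order changed with the library, with ratios of 0.956, 1.17 and 0.998 in K1, K2 and K3, so these neighbours in the order did not differ there beyond their spread. HSPA5 stood at 1.92 ± 0.0358 times the TPM of PDIA4 in C and 1.72 ± 0.0216 times in K. Summed over the 4 genes, the level was 880 ± 3.32 TPM in C and 716 ± 8.72 TPM in K, of which HSPA5 made up 54.6% and 53.2%. The excess in C was 98.7 TPM for HSPA5, 27.78 for PDIA4, 26.005 for SDF2L1 and 10.97 for SELENOS, so the order by amount was not the order by fold.

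By fold change, SDF2L1 ranked 178th of the 9057 tested genes, HSPA5 448th, SELENOS 679th and PDIA4 1532nd, counted from the largest rise. Fold changes rose with the GC content of the transcript across genes (Spearman correlation 0.25 over 9048 genes, which are not independent). GC content was 46.0% for HSPA5, 53.0% for PDIA4 and 48.0% for SELENOS, against a median of 48.2%, while SDF2L1 lay above the upper quartile of 56.6%. With an offset for GC content and length, the log2 fold changes were 0.34 for HSPA5, 0.14 for PDIA4, 0.55 for SDF2L1 and 0.26 for SELENOS. Each of the 68 fold changes obtained over 17 alternatives was above 0. The C and K libraries of these genes did not overlap, so this sign was close to fixed beforehand and adds no evidence.

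**Figure D3:**
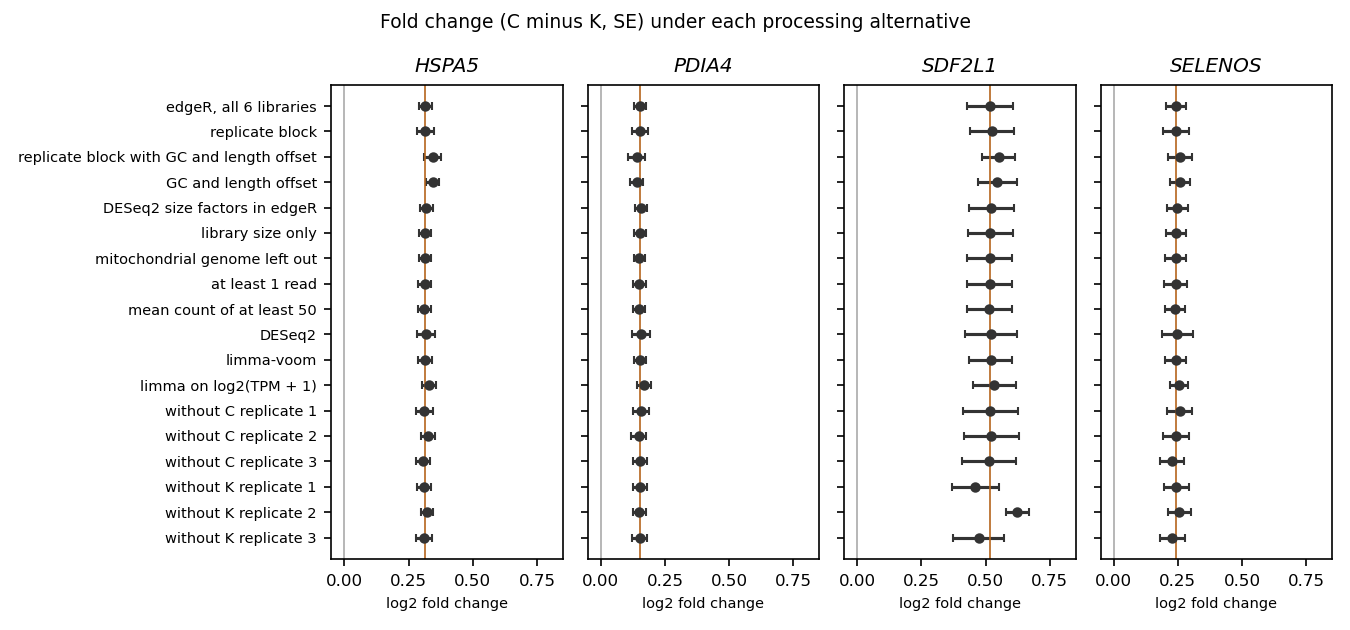
Log2 fold change, C minus K (x axis), with its SE for the 4 genes under the fit on all 6 libraries (top row and brown line) and 17 alternatives. HSPA5 stays between 0.31 and 0.34 and PDIA4 between 0.14 and 0.17, while SDF2L1 runs from 0.46 without K1 to 0.62 without K2.

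The 4 genes were then set beside 193 further genes of ER folding, the unfolded protein response and related families, in 13 lists. The lists were written with earlier results of these data known, so the shares called below are a description. Of these, 130 were in the table and 128 were tested. Past an adjusted p of 0.05 in edgeR, 17 were higher in C and 2 lower, which is 13.3% and 1.56% of those tested, against 2.2% and 3.41% of all genes. Their median log2 fold change was 0.08, against -0.0044 for all genes. Fold changes were above 0 for 96 of the 128, against 4432 of the 9057 genes tested in all. These calls depended on the libraries: of the 19, 3 passed again when C1 was left out, 4 for C2, 4 for C3, 6 for K1, 4 for K3 and 13 for K2. Called in every one of those fits were UBXN6, ASNS and TXNRD1.

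BiP works with J-domain cochaperones and nucleotide exchange factors, and none of the 6 tested passed. Of these genes, 3 of 6 had fold changes above 0 (median log2 fold change 0.018). HYOU1, an ER exchange factor and the most abundant of them, was at 562, 436 and 574 CPM in C1 to C3 and 369, 434 and 473 CPM in K1 to K3. C2 fell within the K libraries, and the log2 fold change of 0.30 (SE 0.13, adjusted p = 0.204 in edgeR) was close to that of HSPA5 but had more scatter. The cochaperones DNAJC10 (-0.10, adjusted p = 0.417) and SEC63 (-0.09, adjusted p = 0.327), named after their values were seen, were at 210 and 111 in C and 226 and 118 CPM in K. DNAJB11 and HSP90B1 were not analysed here.

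Among disulfide isomerases and oxidases, the family of PDIA4, 4 of 12 tested genes rose in C and 0 fell (median log2 fold change 0.13, 11 of 12 above 0). QSOX1, a sulfhydryl oxidase and the most abundant of the list, was at 1603 ± 25.9 in C and 1274 ± 69.9 CPM in K, a change of 0.33 on the log2 scale (SE 0.043, edgeR adjusted p = 0.0171). PDIA3 (ERp57), which acts on glycoproteins, was at 584 in each C library and at 519, 476 and 526 CPM in K1 to K3 (0.20, SE 0.043, adjusted p = 0.0487). QSOX2 rose by 0.17 (adjusted p = 0.0491), and the membrane isomerase TMX2 by 0.14 (adjusted p = 0.0436) in counts, but TMX2 went to -0.027 in limma on log2(TPM + 1). PDIA6, a close relative with a log2 fold change of 0.14 (SE 0.035) against 0.15 for PDIA4, was just outside the threshold (adjusted p = 0.0712). The QSOX1 call was lost without C1, C2, C3 or K1 (adjusted p up to 0.0753), that of PDIA3 without any library except K2 (up to 0.146), and those of TMX2 and QSOX2 without any of the 6 (up to 0.153).

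Of the HSP90-class and lectin chaperones, 2 of 6 rose and 0 fell (median log2 fold change 0.033, 3 of 6 above 0). GANAB, the catalytic subunit of glucosidase II, which trims glycans for the calnexin cycle, was at 902 ± 23.6 in C and 755 ± 44.0 CPM in K (0.26, SE 0.048, edgeR adjusted p = 0.0376). CALR, the lectin chaperone calreticulin, was at 2058 ± 57.3 in C and 1872 ± 21.5 CPM in K (0.14, SE 0.029, adjusted p = 0.0497). The GANAB call was lost without any library except K2 (adjusted p up to 0.120) and the CALR call without any of the 6 (up to 0.166). None of the 6 tested ER prolyl isomerases passed, and 2 of 6 had fold changes above 0 (median log2 fold change -0.035). PPIB, the most abundant, had a log2 fold change of 0.20 (edgeR adjusted p = 0.0524). For SDF2L1, the paralogue SDF2 was not analysed here, and the O-mannosyltransferase POMT2, which carries a related domain, had a log2 fold change of 0.07 (adjusted p = 0.402).

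In ER-associated degradation, where SELENOS acts, 1 of 19 tested genes rose and 0 fell (median 0.03). It was UBXN6, an adaptor of VCP, at 149, 145 and 151 CPM in C1 to C3 and 110, 117 and 108 CPM in K1 to K3 (0.40, SE 0.042, edgeR adjusted p = 0.00801), the larger change beside the 0.24 of SELENOS. VCP, named after its values were seen, was just outside the threshold (0.23, SE 0.051, adjusted p = 0.0521). BAG6, the most abundant gene of the list, was at 862 ± 39.3 in C and 799 ± 24.4 CPM in K (edgeR adjusted p = 0.166). HERPUD1, a scaffold of the degradation complex and a classic stress target, was at 73.1 ± 5.31 in C and 73.1 ± 4.34 CPM in K (0.00079, SE 0.069, adjusted p = 0.995); it too was named after its values were seen. Of 14 other selenoproteins and selenocysteine factors, 1 rose, the thioredoxin reductase TXNRD1 (0.31, SE 0.031, adjusted p = 0.00764), while GPX4, the most abundant, stayed at 532 ± 7.15 in C and 531 ± 14.99 CPM in K (edgeR adjusted p = 0.991).

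Of the sensors and transcription factors of the response, 2 of 10 rose and 0 fell. They were CREB3, a membrane-bound factor related to ATF6 (0.27, SE 0.052, edgeR adjusted p = 0.0415), and PPP1R15A (GADD34), which restores translation after PERK has acted (0.20, SE 0.040, adjusted p = 0.0433). Both calls were lost on leaving out all but 1 of the libraries in turn, K2 for CREB3 and K1 for PPP1R15A (adjusted p up to 0.137 and 0.139). ATF6 itself was at 179 ± 1.62 in C and 176 ± 3.28 CPM in K (edgeR adjusted p = 0.657), and ATF4 at 429 ± 9.98 in C and 418 ± 13.3 CPM (adjusted p = 0.533). DDIT3 (CHOP), a factor of the late response, was at 27.6, 17.8 and 20.7 CPM in C1 to C3 and 15.7, 13.8 and 14.6 CPM in K1 to K3. Its C libraries lay above its K libraries but scattered more, and it did not pass (0.59, SE 0.16, adjusted p = 0.0877). ERN1, EIF2AK3 and XBP1 were not analysed here. RNA levels of sensors do not measure their activity, and splicing of XBP1 or cleavage of ATF6 cannot be read from gene counts.

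Among other targets of ATF6 or XBP1, 0 of 9 rose and 1 fell, the transcriptional regulator CREBRF (22.2 ± 0.461 CPM in C, 28.3 ± 1.20 CPM in K; -0.35, SE 0.055, edgeR adjusted p = 0.0267; up to 0.107 and lost without any library except K2). HM13, the most abundant, was at 488 ± 23.9 in C and 458 ± 16.4 CPM in K (edgeR adjusted p = 0.269). In the ATF4 branch 3 of 12 rose and 1 fell. ASNS, the asparagine synthetase, was at 44.0 ± 0.966 in C and 27.1 ± 0.593 CPM in K (0.70, SE 0.046, adjusted p = 0.00181). PSAT1 (0.31, adjusted p = 0.0423) and PHGDH (0.31, adjusted p = 0.0287), enzymes of serine synthesis, rose, and the mTOR inhibitor DDIT4 fell (-0.55, adjusted p = 0.0175). The calls of PSAT1 and PHGDH were lost without any library except K2 (adjusted p up to 0.130), and that of DDIT4 without C1, C2, C3 or K3 (up to 0.0753).

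At the entry to the ER, 1 of 16 genes of the translocon and signal peptide processing rose, TRAM2 (0.14, edgeR adjusted p = 0.0482), and 1 of 8 of the oligosaccharyltransferase, KRTCAP2 (0.18, adjusted p = 0.0424). Neither passed in any of the 6 fits on 5 libraries (adjusted p reaching 0.138 and 0.145). Of the translocon and transferase genes 14 of 16 and 7 of 8 had fold changes above 0, with medians of 0.13 and 0.14 on the log2 scale. Over all tested genes 4432 of 9057 were above 0. SEC61A1, the channel subunit and most abundant of its list, did not follow the letters: it was at 1156, 554 and 585 CPM in C1 to C3 and 484, 482 and 998 CPM in K1 to K3. Of 9 other HSP70 genes, those of BiP's family outside the ER lumen, 2 rose. HSPA1B (0.23, SE 0.025, adjusted p = 0.00893) and HSPA1A (0.20, SE 0.027, adjusted p = 0.0175) are near-identical copies and uncertain as separate genes; the first call was lost without C1 or K3 and the second without any library except K2 (adjusted p up to 0.0569 and 0.0854). HSPA8, the main cytosolic member, was at 4523 ± 76.3 in C and 4231 ± 168 CPM in K (0.10, SE 0.035, adjusted p = 0.148), a smaller difference than the 0.31 of HSPA5.

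**Figure D4:**
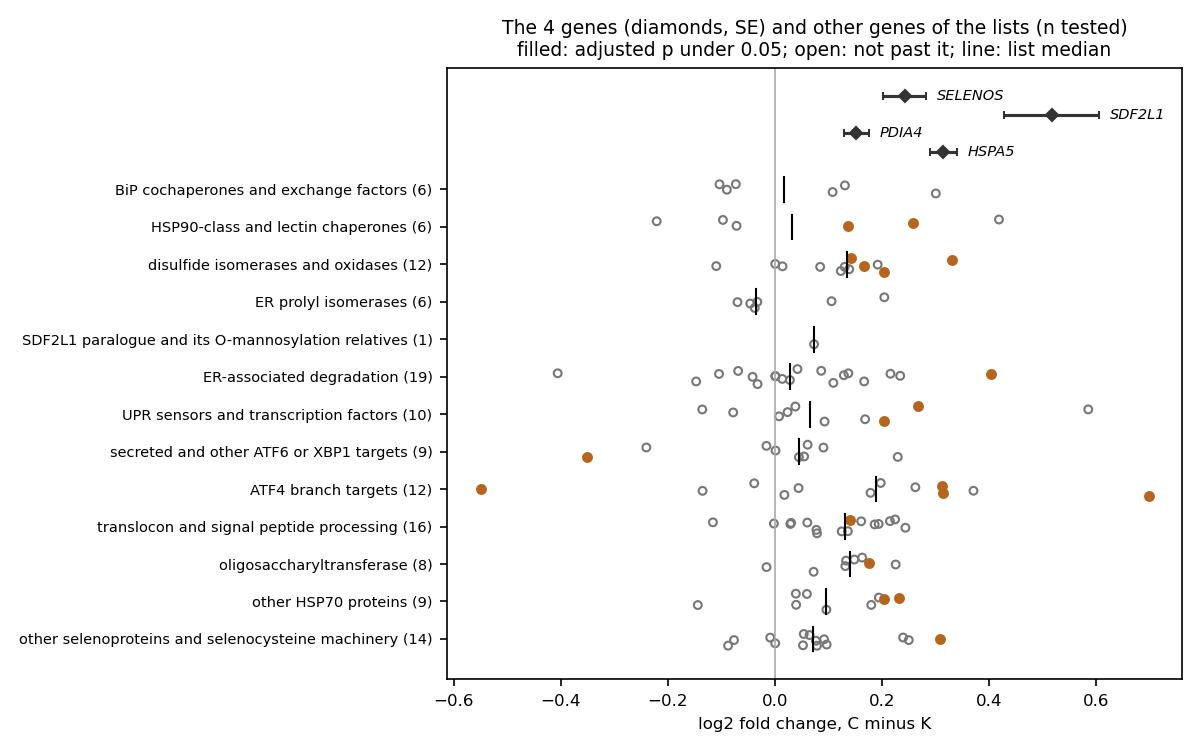
Log2 fold change, C minus K (x axis), of the 4 genes (diamonds with SE) and of the other list genes (points, by list, with the number tested); filled points passed an adjusted p of 0.05 in edgeR and lines are list medians. The 4 genes, at 0.15 to 0.52, were picked for being higher in C, so their place to the right is set by that choice. The lists, with medians from -0.035 to 0.19, were written with earlier results of these data known.

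Genes whose promoter windows hold the same elements were also examined. An exact ERSE was present in 6 tested genes besides HSPA5, of which 1 rose, CALR, and 0 fell. Their log2 fold changes ran from -0.08 (ZNF17) to 0.20 (TRIM5), with a median of 0.10. CALR passed in 0 of 6 fits on 5 libraries. PDIA6 and SERP1, both ER genes, were at 0.14 and 0.05. An exact ERSE-II was present in 10 tested genes besides SDF2L1, of which 1 rose, the ATPase RUVBL2 (0.18, SE 0.030, edgeR adjusted p = 0.0298, passing in 1 of 6 fits on 5 libraries, without K2), and 0 fell, with a median of 0.07. They included HYOU1 (0.30) and HERPUD1 (0.00079). Both elements thus occurred also at genes with fold changes near 0.

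The likeness of other genes to each member was taken as the root mean square difference in log2 CPM, centred on each gene's mean, over the 6 libraries. Nearest to HSPA5 were HBEGF, a growth factor (0.0148), TXNRD1 (0.0205) and UNC13B, a vesicle priming protein (0.0255). Nearest to PDIA4 were MPV17L2 (0.00718), EDC4, an mRNA decapping scaffold (0.00810), and ETS1, a transcription factor (0.0100). For SDF2L1 they were the peroxiredoxin PRDX1 (0.0783), RELB, an NF-kB subunit (0.0867), and the metallothionein MT1E (0.0886). For SELENOS they were CRYL1 (0.0176), FTSJ3, a ribosome biogenesis factor (0.0192), and TMEM109 (0.0193). Between members, the difference was smallest for SELENOS and HSPA5 (0.0421) and largest for SDF2L1 and PDIA4 (0.212). Each member was farther from the other members than from its 3 nearest genes. Those 3 are the closest of all tested genes, so this does not show whether the members are alike. The measure uses the same contrast the members were picked on.

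The nearest tested genes along the chromosome showed smaller differences than the members, which were picked for theirs. RABEPK, 695 bases from HSPA5, had a log2 fold change of 0.11 (SE 0.044, edgeR adjusted p = 0.164), and GAPVD1 on the other side one of 0.10 (adjusted p = 0.484). EZH2 and ZNF786, around PDIA4, were at 0.0021 and 0.0056 (adjusted p = 0.984 and 0.967). YDJC, 12197 bases from SDF2L1, was at 0.26 (SE 0.086, adjusted p = 0.117), and PPIL2 on the other side at -0.07 (adjusted p = 0.410). CHSY1 and SNRPA1, around SELENOS, were at -0.07 and 0.05 (adjusted p = 0.261 and 0.481). None of these 8 neighbours passed, where 5.61% of all tested genes did, so few or none would be awaited among 8.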

How the data were processed

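The authors deposited 1 table with a count, a TPM and an FPKM per gene and library. The counts were whole numbers, taken as unnormalised reads per gene; the deposited TPM and FPKM scale by gene length and library total. The submitters' processing notes list GRCh38 as the build and, as tools, HISAT2 2.1.0, StringTie 1.3.3b, Trimmomatic and FastQC 0.11.2. Strand use and the tool for the counts were not given in the sources used here. The table held 13707 complete rows and 1 row cut short, and TPM summed to between 67.1% and 67.9% of the full total, so other genes were not analysed here. All libraries differed beyond sampling noise (chi-square per degree of freedom at least 22.4).

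Counts were fitted with edgeR 4.0.16 (R 4.3.3), with filterByExpr (minimum count 10, minimum total 15), TMM factors between 0.993 and 1.007, the quasi-likelihood test of C against K on 6 libraries without covariates, and Benjamini-Hochberg adjustment over all genes at 0.05. SE is the log2 fold change divided by the square root of F. Likeness used log2 CPM with a prior count of 2. The edgeR fit and the GC offset were tested on simulated data, with changed genes drawn from those of at least median abundance. The members and lists were chosen with earlier results of these data known. Genes named were the members, key regulators and relatives, up to 4 called genes and the most abundant of each list, and the 3 nearest in likeness. Alternatives used DESeq2 1.42.0, limma 3.58.1 (voom, and log2(TPM + 1) at mean TPM of at least 1), FPKM, other filters and scalings, a GC and length offset, a replicate block, and each library left out. Sequence, overlap and GC checks used GENCODE release 29 and RefSeq tables.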

Additional observations from a re-analysis of the deposited data

How the results depend on the processing

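The 4 members kept a positive fold change in all 17 alternatives, as the gap between their C and K libraries made likely beforehand. Calls are another measure, and most calls among the list genes were lost when a library other than K2 was left out. The members were picked for passing a previous test of these same libraries, so a pass by any of them adds no evidence. Only 1 of them (HSPA5) stayed past the edgeR threshold without C1, C2, C3, K1 or K3, and 4 did without K2. With a replicate block 0 of the members passed. Over all genes the count of 508 (60.8% lower in C) ran from 77 to 533 when a library was left out, and that of list genes, 19, from 3 to 19. Counts over all genes and over the lists were 1039 (49.4% lower in C) and 31 with DESeq2, 279 (51.6%) and 11 with limma on log2(TPM + 1), and 25 (84%) and 1 with a replicate block. They were 20 (80%) and 1 with the replicate block and GC and length offset, and 582 (43.6%) and 29 with the offset alone. The numbers in the titles did not pair the libraries: deviations of same-numbered C and K libraries correlated at -0.0891, 0.0324 and -0.00432, and C1 correlated best with K3. The block also uses up degrees of freedom.

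HSPA5 moved by more than the spread between replicates to 0.34 with the offset, with and without the replicate block. PDIA4 moved to 0.14 in both and to 0.17 with limma on log2(TPM + 1). Leaving out a library gave 0.31 to 0.33 for HSPA5, 0.15 to 0.16 for PDIA4, 0.46 to 0.62 for SDF2L1 and 0.23 to 0.26 for SELENOS. With FPKM, the log2 ratios of mean levels were 0.31 for HSPA5, 0.14 for PDIA4, 0.51 for SDF2L1 and 0.23 for SELENOS, against 0.33, 0.17, 0.54 and 0.26 with TPM. TMX2 reversed to -0.027 with limma on log2(TPM + 1); the cause was not tested. With 1 mismatch allowed, members with ERSE went from 1 to 2, with ERSE-II from 1 to 2 and with the UPRE core from 0 to 2, and 41.7% of tested windows then held the UPRE core. Differences under about the counting error of 2.85% are below what the depth of SDF2L1 in K can show.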
